A study of Homo sapiens with 5 samples.

Results

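Reduced representation bisulfite sequencing (RRBS) libraries from human induced pluripotent stem cells (iPSCs) exposed to etoposide or to propyl gallate were set directly against each other, without the vehicle control in the comparison. These were 2 of the 5 libraries of the series, and all 288391 windows of 1000 bases covered in every library were compared. The study screened chemicals for effects on DNA methylation with a fluorescent methyl-CpG-binding reporter and followed selected ones by RRBS. The cells were the established line HPS0063, also called 201B7, labelled wild type, and were grown without feeder cells in mTeSR1 medium on Laminin511-E8. The etoposide library came from cells given 1 nM for 48 h and the propyl gallate library from cells given 1 µM for 48 h. The other 3 libraries came from the vehicle control of 0.1% DMSO, 1 µM theophylline and 10 nM 5-aza-dc (the DNA methyltransferase inhibitor decitabine). They took no part in testing the windows for a difference. Windows had to be covered in them too, and their mean methylation sorts windows by level and picks the intermediate island windows below. Each condition had 1 library and the doses of both chemicals differ, so a difference between the libraries cannot be told apart from a difference between any 2 dishes of these cells.

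DNA methylation in mammals sits mostly on the cytosine of CpG dinucleotides. CpG islands, dense runs of CpG that cover many gene starts, are usually free of it, the rest of the genome is mostly methylated, and islands that control imprinted genes carry it on the copy from a single parent, so that the average over both copies lies at an intermediate level. Etoposide traps topoisomerase II on cut DNA and so leads to strand breaks and a damage response, while propyl gallate is a food antioxidant that scavenges radicals. RRBS cuts DNA with a restriction enzyme, usually at CCGG, converts unmethylated cytosines with bisulfite and reads what stayed unconverted. The value of a window is its β-value, here in percent, the methylated calls over all calls at its CpG cytosines. Calls are not independent molecules, since several can come from a single read or from PCR copies, so every interval below is a 95% interval of counting error only.

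For 8 protein-coding genes considered, the 300 bases around a RefSeq start lay wholly inside an island window that differed by at least 25 percentage points between the libraries with at least 50 calls in each, and 4 are shown, 2 for each direction. Capitals mark CCGG, whose CpG such a library can read, and each sequence runs 5′ to 3′ on the strand of the gene, from RefSeq on GRCh38.p14. The gene FZD9 encodes a Wnt receptor (chr7:73433528-73433827, forward strand), ACACB encodes the acetyl-CoA carboxylase of mitochondria (chr12:109154429-109154728, forward strand), PFKFB3 encodes an activator of glycolysis (chr10:6144671-6144970, forward strand), and GNAS encodes the stimulatory G protein alpha subunit (chr20:58888163-58888462, forward strand, at one of the starts RefSeq gives for this gene).
FZD9: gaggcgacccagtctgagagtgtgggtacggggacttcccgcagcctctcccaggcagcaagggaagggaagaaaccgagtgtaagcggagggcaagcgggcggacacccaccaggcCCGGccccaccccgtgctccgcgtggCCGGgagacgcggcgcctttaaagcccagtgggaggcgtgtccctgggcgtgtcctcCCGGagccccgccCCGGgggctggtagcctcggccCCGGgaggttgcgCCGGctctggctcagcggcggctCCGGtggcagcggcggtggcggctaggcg
ACACB: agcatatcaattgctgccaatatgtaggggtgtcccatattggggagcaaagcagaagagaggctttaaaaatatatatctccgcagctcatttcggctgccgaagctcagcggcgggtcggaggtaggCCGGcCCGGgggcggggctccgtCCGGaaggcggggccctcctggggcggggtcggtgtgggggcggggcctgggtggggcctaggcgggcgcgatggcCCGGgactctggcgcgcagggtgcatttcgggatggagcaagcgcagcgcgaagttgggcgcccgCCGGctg
PFKFB3: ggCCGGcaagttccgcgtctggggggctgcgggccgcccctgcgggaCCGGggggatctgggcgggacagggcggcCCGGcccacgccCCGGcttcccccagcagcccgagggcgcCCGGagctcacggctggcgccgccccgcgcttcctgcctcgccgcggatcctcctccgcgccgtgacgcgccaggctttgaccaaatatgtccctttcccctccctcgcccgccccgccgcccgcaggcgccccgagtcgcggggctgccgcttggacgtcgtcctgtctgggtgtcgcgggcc
GNAS: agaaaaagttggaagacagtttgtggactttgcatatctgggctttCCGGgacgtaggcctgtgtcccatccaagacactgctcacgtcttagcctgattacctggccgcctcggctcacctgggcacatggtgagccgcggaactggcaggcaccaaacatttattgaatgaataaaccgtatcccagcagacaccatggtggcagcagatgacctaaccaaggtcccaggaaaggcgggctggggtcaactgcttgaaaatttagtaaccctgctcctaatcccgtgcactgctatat

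These 300 bases held 31 CpG and 7 CCGG in FZD9, 28 and 5 in ACACB, 42 and 5 in PFKFB3, and 10 and 1 in GNAS. For comparison, 63.1% of 35116 promoters of this length in the RefSeq table held a CCGG, with a median of 14 CpG. The FZD9 window (chr7:73433001-73434000) had a β-value of 17.2% over 608 calls in the etoposide library and 88.0% over 69 calls in the propyl gallate library. In the ACACB window (chr12:109154001-109155000) the β-values were 31.1% and 64.04%. The PFKFB3 window (chr10:6144001-6145000) went the other way, with 30.9% after etoposide and 5.59% after propyl gallate, as did the GNAS window (chr20:58888001-58889000), with 77.6% and 31.9%. Calls were more than 2-fold apart between both libraries in the FZD9, ACACB and PFKFB3 windows and not in the GNAS window.

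Across the genome the libraries were close. The mean β-value was 79.9% in both, and the etoposide library was lower by 0.0526 percentage points on average (difference −0.0526, interval −0.064 to −0.0411). Pooling all calls in place of averaging windows turned the sign, to 0.108 percentage points. The etoposide library was higher in 49.4% of the windows and lower in 49.6%. The β-values lay within 1 percentage point of each other in 26.5% of the windows, within 5 in 77.6% and within 10 in 94.3%. The root mean square difference was 5.30 percentage points, and counting alone would give 3.13. Mean differences per autosome ran from −0.127 to 0.0765, with the etoposide library lower on 17 of 22.

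Single windows were compared by Fisher's exact test (two-sided), and p-values were adjusted after Benjamini and Hochberg over all windows. The test compares these 2 libraries and not the 2 chemicals. A window was called at an adjusted p under 0.01 with at least 25 percentage points between the β-values. This held for 564 windows, or 0.196% of those tested. The etoposide library was higher in 246 of them (0.0853%) and lower in 318 (0.11%). The adjusted p alone was passed by 27895 windows, 13772 of them higher after etoposide. A further 555 windows were at least 25 percentage points apart without passing the test, and the median of their smaller call number was 16. Of the called windows, 120 had at least 100 calls in both libraries, 50 higher and 70 lower after etoposide. Called windows had a median smaller call number of 51, against 390 over all windows. Relative to the total calls of each library, the calls were more than 2-fold apart in 34.9% of the called windows and in 3.79% of all windows. Leaving out such windows left 367 called, a share of 0.132%, and the part of uneven coverage in the calls was not tested. For windows given by name below, the fold is between calls as counted unless library totals are mentioned.

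**Figure D1:**
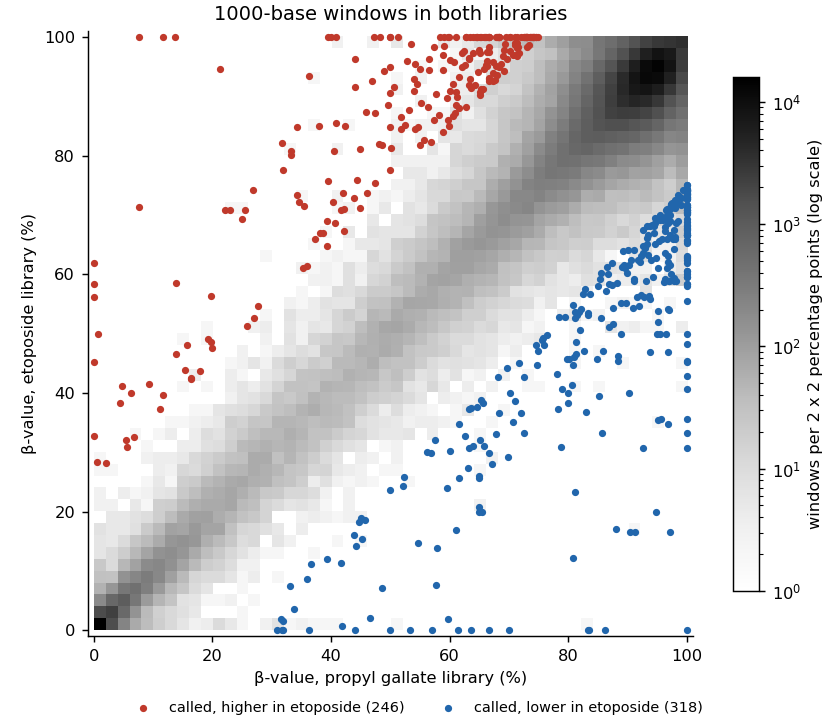
β-value of each window in the propyl gallate library (x axis, percent) and the etoposide library (y axis, percent). Grey squares count windows per bin on a log scale and points are called windows. Most windows lie on the diagonal near full methylation or near 0, and the 246 called windows above and 318 below it start 25 percentage points away from it.

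The same rule applied to other pairs of libraries gave similar numbers. The 5 other pairs without 5-aza-dc had 503 to 561 called windows, or 0.174% to 0.195%, and root mean square differences of 5.12 to 5.31 percentage points. The count for etoposide against propyl gallate thus lay just above this range. Pairs with the 5-aza-dc library had 891 to 1086. Pairs share libraries and are not independent of each other.

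Windows at an intermediate level made up far more of the calls than of the genome. By the mean of the other 3 libraries, 4.17% of the windows lay between 30% and 70%, and they held 28.2% of the called windows (159 of 564). The share called was 1.32% there, 0.623% between 10% and 30%, 0.29% between 70% and 90%, 0.086% at 90% or above, 0.0603% between 2% and 10%, and 0.0056% (1 window) under 2%. The root mean square difference was 9.19 percentage points in the intermediate windows against 4.94 from counting, and 1.26 against 0.959 in windows under 2%.

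**Figure D2:**
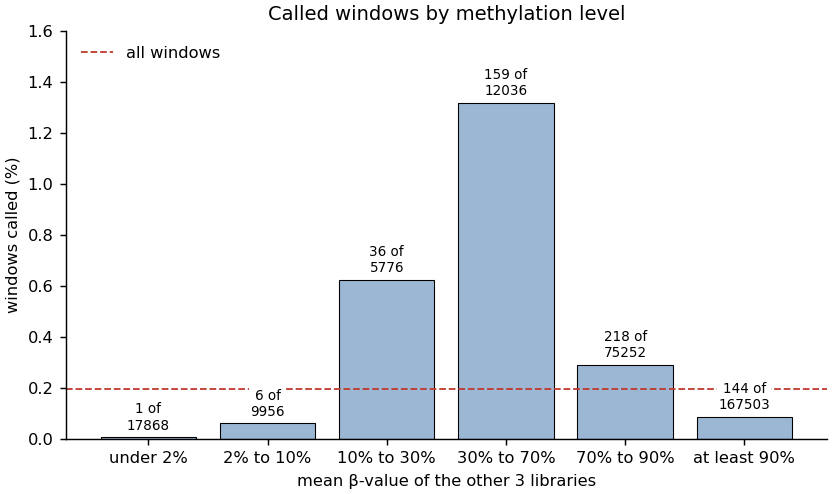
Percent of windows called (y axis) by the mean β-value of the vehicle control, theophylline and 5-aza-dc libraries (x axis), with the number called above each bar. The dashed line is the share over all windows, 0.196%, and the bar for 30% to 70% is the highest at 1.32%.

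CpG islands were called at 0.245% (122 of 49761 windows), shores at 0.18%, shelves at 0.186% and windows outside at 0.186%. Among windows with at least 100 calls in both libraries, islands were called at 0.11% and windows outside at 0.0337%. Promoters, taken as 1500 bases before to 500 after a gene start, were called at 0.206% inside islands and 0.272% outside them. The 20 called island windows between genes were split 5 higher and 15 lower after etoposide, and the 49 in promoters 27 and 22. The share of windows called ran from 0.0515% on chromosome 18 to 0.353% on chromosome 22 among autosomes, and was 0.385% on the X chromosome.

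Lower methylation after etoposide was largest, among windows with at least 100 calls in both libraries, at GRAMD4 (chr22:46577001-46578000, an island over an intron and exon boundary). Its β-value was 12.3% in the etoposide library over 649 calls and 80.8% in the propyl gallate library over 110 calls, 5.90-fold apart. The vehicle control (12.3%), theophylline (10.1%) and 5-aza-dc (8.43%) libraries lay with etoposide, so the propyl gallate library stood apart. At CCND1, which encodes cyclin D1 of the G1 phase (chr11:69643001-69644000, an island over an intron and exon boundary), the values were 26.05% and 64.99%, a difference of −38.9 percentage points (−45.4 to −31.7). Here the vehicle control was at 73.1%, theophylline at 57.2% and 5-aza-dc at 41.1%, so the libraries spread over the whole interval. An island window inside SMARCB1, a subunit of the SWI/SNF remodeller, and at the start of DERL3 (chr22:23838001-23839000) had 14.8% and 54.8%. Next to HYAL3 and inside IFRD2 (chr3:50291001-50292000), an island shore had 0.671% after etoposide and 41.8% after propyl gallate, and 34.1%, 19.6% and 8.22% in the vehicle control, theophylline and 5-aza-dc libraries. The endocytic adaptor gene FCHO1 (chr19:17766001-17767000) had 47.1% and 85.8%, and an intergenic window nearest to GPR132, a G protein-coupled receptor (chr14:105074001-105075000), had 30.9% and 78.7%. At the last of these the other 3 libraries lay between 63.6% and 67.7%, nearer to propyl gallate. Of these 10 windows, only GRAMD4 had calls more than 2-fold apart relative to the library totals. At HORMAD2 the calls as counted, 110 and 224, were also more than 2-fold apart. Of the remaining 4 of the 10, 1 is not reported here, and the other 3 lay in HORMAD2 and at 2 sites on chromosomes 4 and 7 outside annotated protein-coding genes, with differences of −37.1, −42.2 and −41.6 percentage points.

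Higher methylation after etoposide was largest in the same class at the GNAS window described above. Its difference was 45.7 percentage points (39.5 to 51.2), with 481 and 404 calls. The adjusted p in Fisher's exact test was 6.32e-39 here and 3.11e-43 at GRAMD4. The vehicle control was at 62.3%, theophylline at 31.4% and 5-aza-dc at 41.4%, so etoposide lay above and propyl gallate within the other libraries. An island inside PARD3, a gene of the cell polarity complex (chr10:34353001-34354000), had 96.0% after etoposide and 52.9% after propyl gallate. An intergenic window on chromosome 15 (chr15:97904001-97905000) had 98.8% and 53.5%. The island shared by ZNF48, a zinc finger gene, and the septin gene SEPTIN1 (chr16:30379001-30380000) had 88.5% and 49.7%, and the other libraries were at 91.0%, 90.3% and 73.0%, nearer to etoposide. A shelf window inside PRDM16, a regulator of brown fat and blood stem cells (chr1:3150001-3151000), had 91.0% and 54.0%. The promoter island of CHST6, a corneal sulfotransferase (chr16:75494001-75495000), had 86.6% and 51.7%, with 89.0% in the vehicle control and 51.7% after theophylline. The dopamine receptor pseudogene DRD5P1, whose reads can be shared with its parent gene, had 98.6% and 59.1%. Calls were more than 2-fold apart at ZNF48 and DRD5P1. Of the remaining 3, 2 were intergenic windows on the X chromosome with differences of 36.1 and 36.5 percentage points, and 1 lies on the Y chromosome and is not described.

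Called windows in an island and in the promoter of a named gene numbered 40, with 21 higher and 19 lower after etoposide, and lay in promoters of 43 genes. In 18 of the 40 the calls as counted were more than 2-fold apart, among them the windows of FZD9 (8.81-fold), RPS19BP1, PARD6B, METTL27, PFKFB3, SNX19 and CCNB2. Lower after etoposide were FZD9 (−70.8 percentage points, interval −77.6 to −61.1), RPS19BP1, a regulator of the deacetylase SIRT1 (0% over 26 calls, which allows up to 11.5%, and 70% over 83 calls), and PARD6B of the cell polarity complex (14.0% and 57.9%). So were DSN1, a kinetochore subunit (33.0% over 498 calls and 67.9% over 721 calls), CHAF1B, a subunit of chromatin assembly factor 1 (1.85% and 31.7%), METTL27 (15.4% and 45.2%) and KICS2, a regulator of mTORC1 (32.8% and 62.6%). Higher after etoposide were CCNB2, which encodes cyclin B2 of mitosis (96.4% over 93 calls and 44.1% over 240 calls), HNRNPA0, which encodes an RNA-binding protein (45.2%, and 0% over 41 calls, which allows up to 7.32%), and GGCT of glutathione turnover (85.1% and 42.3%). SNX19, a sorting nexin gene (40% and 6.33%), GNMT, which encodes glycine N-methyltransferase of the methionine cycle (43.9% and 15.3%), ODF2L (28.3% and 0.636%), PFKFB3 and ABHD11 (85.1% over 671 calls and 60.0% over 772 calls) were higher too. The windows of FZD9 (chr7:73433001-73434000), ABHD11 (chr7:73739001-73740000) and METTL27 (chr7:73842001-73843000) lie near each other on chromosome 7 and did not share a direction, a group picked after the values were seen.

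Where another library is set beside these promoters, it is not always propyl gallate or etoposide that stands apart. At FZD9 the vehicle control was at 24.1%, theophylline at 17.9% and 5-aza-dc at 20.5%, all near etoposide. At RPS19BP1 they were at 60.4%, 66.1% and 62.5%, all near propyl gallate. At ABHD11 they were at 56.7%, 60.3% and 41.3%, so the etoposide library was the highest. At HNRNPA0 the vehicle control was at 0% over 61 calls, which allows up to 4.92%, and theophylline at 60.9%, and at ODF2L theophylline was at 0.278% and the vehicle control at 18.3%. Over all 564 called windows, all 3 other libraries lay nearer to propyl gallate in 189 (33.5%), all nearer to etoposide in 119 (21.1%), and they were divided in 256 (45.4%). Over the 5 other pairs without 5-aza-dc, the share of divided windows was 43.5% to 47.7%. In windows called between etoposide and the vehicle control, etoposide stood apart in 142 and the control in 155. Between etoposide and theophylline these numbers were 178 and 139, and between propyl gallate and the vehicle control 143 and 139. They were 142 and 121 for propyl gallate and theophylline, and 147 and 135 for the vehicle control and theophylline. Of the 318 windows lower after etoposide, etoposide stood apart in 152 and propyl gallate in 27. In the 246 higher after etoposide the numbers were 37 and 92. By the mean of the other 3 libraries, 218 of the 564 called windows lay between 70% and 90% and 144 at 90% or above. At these levels a β-value has more room to fall than to rise, which favours the lower library as the one apart. The part of this in the split by direction was not tested. Among the called windows with at least 100 calls in both libraries, etoposide stood apart in 21 and propyl gallate in 12 of the 70 lower after etoposide, and in 13 and 12 of the 50 higher.

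Called windows stood alone. No 2 called windows of the same direction touched or lay within 2 windows of each other. Touching windows were measured for 336 of the 564 called windows, 409 neighbours in all. Of these neighbours, 213 differed in the direction of the called window, 189 in the opposite direction and 7 not at all. The median difference of a neighbour, signed by the called window, was 0.0962 percentage points. The adjusted p was under 0.01 in 26 neighbours of the same and 21 of the opposite direction, in Fisher's exact test.

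At FZD9 the windows before and after the called one had 83.5% and 69.7% in the etoposide library and 80.6% and 74.8% in the propyl gallate library. At PARD6B the next window had 0.676% and 0.48%. At CCNB2 the window after the called one, which holds the start of the gene, had 2.21% over 192 calls and 2.90% over 475 calls. At GNAS the next windows had 41.7% and 41.1%, then 20.9% and 22.3%, while a CpG shelf window farther along (chr20:58896001-58897000) was called in the opposite direction, with 52.7% after etoposide and 85.5% after propyl gallate. These 4 loci were chosen after their values were seen.

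**Figure D3:**
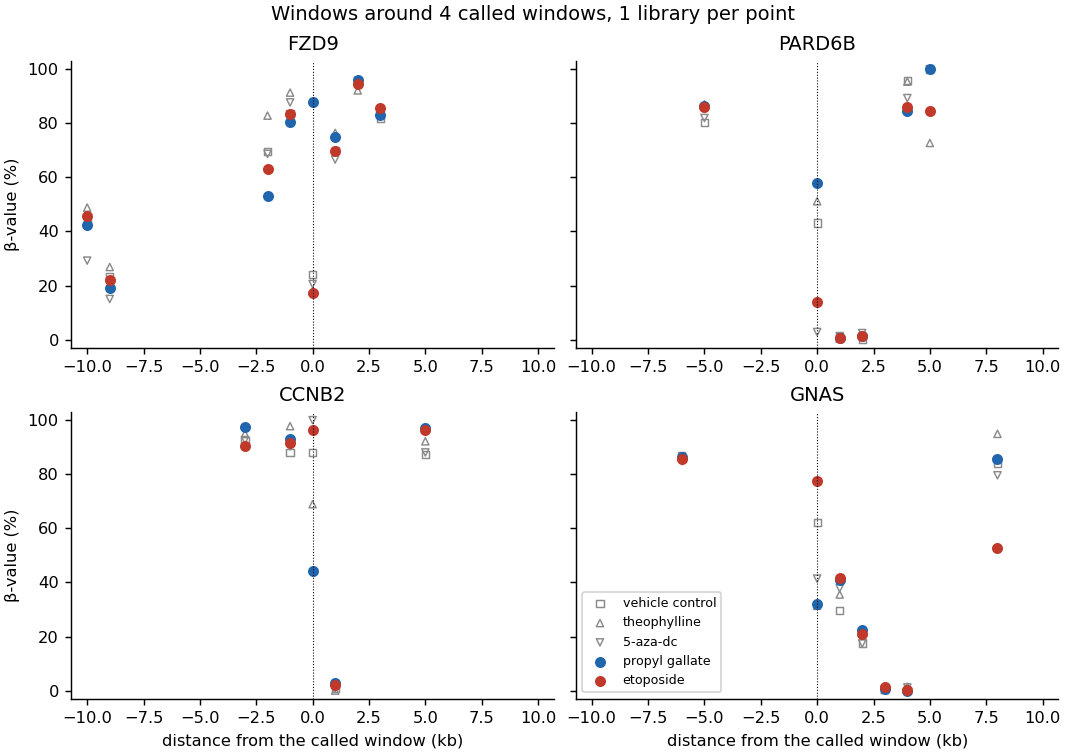
β-value (y axis, percent) of the measured windows within 10 kb of the called window (x axis, kb) at FZD9, PARD6B, CCNB2 and GNAS, with red points for etoposide, blue for propyl gallate and open symbols for the other 3 libraries. Etoposide and propyl gallate part at 0 kb and lie near each other in the touching windows, for example 2.21% and 2.90% at CCNB2.

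The genes with 2 or more called windows in the same direction were 7 in number. NRXN2 and CDH4, which encode a neurexin and a cadherin of nerve cells, PHACTR3, an actin and phosphatase regulator, and MEI1 of meiosis each had 2 lower after etoposide. CHST11, a chondroitin sulfotransferase, ZFHX3, a zinc finger homeobox factor, and GSE1 each had 2 higher. These are long genes in the table, with 26 (MEI1) to 279 (GSE1) windows each. GSE1 held a window at 94.7% after etoposide and 21.3% after propyl gallate (chr16:85411001-85412000), another at 73.8% and 42.0% (chr16:85291001-85292000), and another called window of the opposite direction at 20% and 65.6% (chr16:85187001-85188000). The mean difference over all 279 windows of GSE1 was 0.91 percentage points. In NRXN2 the pair had 18.3% and 44.8% (chr11:64630001-64631000) and 67.9% and 100% (chr11:64671001-64672000). At the former the vehicle control was at 78.5% and theophylline at 92.9%, above both.

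Means over genes were nearly level. Over 15209 genes with at least 5 windows of at least 30 calls, the median difference was −0.0239 percentage points and 95% of the genes lay between −3.21 and 3.13. A mean difference of at least 10 percentage points was found in 4 genes and of at least 5 in 141. The lowest for etoposide were FZD9 with −14.4 (−16.7 to −12.1), CEACAM18, a cell adhesion gene, with −13.3 (−17.8 to −8.77), the noncoding ENSG00000259519 with −11.4, ENSG00000262869 with −8.94 and PARD6B with −7.87. The highest were TPTE2P3, a pseudogene, with 10.2 (7.53 to 12.9), ENSG00000225806, which shares the called window of GNAS, with 9.99 (8.12 to 11.9), LINC01615 with 9.56, CCNB2 with 9.46 (7.29 to 11.6) and FANCB of the Fanconi anaemia DNA repair pathway with 9.43 (5.01 to 13.8). In FZD9, PARD6B, CCNB2, ENSG00000259519, ENSG00000225806 and CEACAM18 a single called window carried most of the difference. CEACAM18 was lower after etoposide in all 5 of its windows, with differences of −3.88, −4.26, −8.71, −12.3 and −37.3 percentage points. Only 1 of them was called, the last, over 30 calls after etoposide and 68 after propyl gallate. The gene was picked for its low mean, so a shared direction partly follows from that choice. With all calls of a gene pooled, the difference stayed within 1.5 times only for CEACAM18 (−12.3) and FANCB (7.12). It was then −7.72 for FZD9, −3.14 for PARD6B, −0.365 for ENSG00000262869, 2.91 for TPTE2P3, 1.79 for ENSG00000225806, 3.46 for LINC01615 and 15.3 for CCNB2, and turned to 2.45 for ENSG00000259519. By the windows the deposited table assigns to each gene, it was −4.32 for FZD9, −5.62 for CEACAM18, −4.96 for ENSG00000259519, −4.23 for PARD6B, 17.6 for FANCB, 3.52 for LINC01615 and 3.94 for ENSG00000225806. With windows of fewer than 30 calls included, only FANCB left its interval, at 3.88.

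The genes that answer each chemical in other cells were described as lists. Of 442 windows of 49 genes of the DNA damage response, 1 was called (0.226%, beside 0.196% over all windows), lower after etoposide, and the median difference was 0.0198 percentage points beside 0 over all windows. At 10 percentage points, with an adjusted p under 0.01 in Fisher's exact test, 5 windows of the list passed (1.13%, beside 2.26% over all windows). Of these 5, 2 were higher and 3 lower after etoposide. Among them and short of 25 percentage points, CDKN1A, which encodes the cell cycle inhibitor p21, had a window at 93.8% and 75.8% (chr6:36684001-36685000). GADD45A, a stress gene, had one at 44.8% and 64.8% (chr1:67684001-67685000). Of the genes that etoposide acts on, TOP2A had a mean difference of 0.32 percentage points over 2 windows (−1.86 to 2.5) and none was called.

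Of 433 windows of 48 antioxidant response genes, 3 were called (0.693%, beside 0.196% over all windows), all lower after etoposide (0.11% of all windows were), with a median over the list of 0.0385. Among them were FTH1, the heavy chain of the iron store ferritin (chr11:61968001-61969000, 3.57% over 119 calls and 33.8% over 283 calls) and AHRR, the repressor of the aryl hydrocarbon receptor (chr5:348001-349000, 58.8% over 14 calls and 97.0% over 62 calls). Calls were more than 2-fold apart at both. At FTH1 the other libraries had 1.69% to 7.88%, so propyl gallate stood apart. At AHRR they had 78.4% to 88.3%, nearer to propyl gallate. A second AHRR window with many calls (chr5:373001-374000) had 28.8% over 1373 calls and 51.7% over 977 calls, short of the 25 percentage points. With only the windows the deposited table assigns to each gene, 1 of the 3 was left.

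Of 345 windows of 24 genes of the DNA methylation machinery, 1 was called (0.29%), higher after etoposide. For this list and the next ones, the share over all windows was again 0.196%. Among 209 windows of pluripotency genes, 263 of germline genes and 219 of the HOX clusters none was called, and among 776 windows of genes known to vary after reprogramming 2 were (0.258%), 1 in each direction. They lay in the potassium channel partner gene DPP6 (chr7:154885001-154886000), with 72.9% and 100%, and in CSMD1, with 100% over 42 calls and 74.1% over 53 calls. The window after the DPP6 one differed the same way, with 88.8% and 99.7%. Of 128 windows of the clustered protocadherins, cell surface genes of nerve cells, 1 was called (0.781%), in a promoter window that PCDHGA1, PCDHGA2 and PCDHGA3 share (chr5:141343001-141344000), with 40% and 70.2%. Of 106 windows of the 9 genes the study followed by name none was called. In 2 (1.89%, beside 2.26% over all windows) the libraries were at least 10 percentage points apart, with an adjusted p under 0.01 in Fisher's exact test. Mean differences over these 9 genes were −2.81 for LIFR (−4.5 to −1.13), −1.94 for JUND (−3.76 to −0.128), −1.31 for CCND2, −1.09 for CREBBP (−1.91 to −0.266), −0.321 for CCNA2, 0.0691 for SMAD4, 0.359 for JAG1, 0.375 for NOTCH4 and 1.01 for RB1. The sign turned when all calls of the gene were pooled for LIFR (3.21), CREBBP (1.02), CCND2 (2.45) and JAG1 (−1.59). By the windows the table assigns, it turned for CCND2 (0.681), JAG1 (−0.225), NOTCH4 (−0.202) and SMAD4 (−1.43).

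Imprinted genes held the largest share among the 10 lists. Of 706 windows of 45 genes, 6 were called (0.85%, beside 0.196% over all windows), 3 in each direction. Higher after etoposide were GNAS, NNAT and KCNQ1, and lower were SNRPN, MAGEL2 and the shelf window of GNAS. NNAT, a gene of the endoplasmic reticulum inside BLCAP (chr20:37520001-37521000, a promoter island), had 67.3% over 1097 calls and 42.2% over 914 calls, and the other libraries lay together at 51.2% to 52.6%, between both. KCNQ1, a potassium channel (chr11:2556001-2557000), had 100% and 73.6%. SNRPN of the Prader-Willi region (chr15:24950001-24951000) had 29.9% and 56.8%, and MAGEL2 of the same region (chr15:23645001-23646000) had 56.4% over 33 calls and 93.6% over 43 calls. With at least 10 percentage points in place of 25, 6526 of all windows were called (2.26%) and 37 of the imprinted windows (5.24%), 24 higher and 13 lower after etoposide. Intermediate levels are called most often in any gene, as given above, and 70 windows of this list (9.92%) lay between 30% and 70%.

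For a comparison at a like level, island windows with a mean between 25% and 75% in the other 3 libraries were taken. There were 42 in imprinted genes and 3818 in all. The imprinted ones had a mean of 53.01% after etoposide and 48.4% after propyl gallate, a difference of 4.59 percentage points (3.84 to 5.33). Over all 3818 the difference was −0.105 percentage points. The etoposide library was higher in 29 of the 42 and lower in 13, and 15 passed the 10-point rule (35.7%), against 10.8% of the 3818. Of these 15, 12 were higher after etoposide. The root mean square difference was 12.6 percentage points in the imprinted windows and 8.45 in all. Neighbouring windows of an imprinted island share fragments and alleles, so 42 windows are fewer independent loci.

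Beside GNAS and NNAT, the largest of these were at the noncoding PEG13 inside TRAPPC9 (chr8:140098001-140099000, 78.7% over 935 calls and 60.7% over 1015 calls), at PLAGL1 and HYMAI, a zinc finger gene and the noncoding RNA over its start (chr6:144007001-144008000, 64.8% over 797 calls and 48.7% over 470 calls), and at L3MBTL1, a chromatin compaction gene (chr20:43513001-43514000, 70.1% and 54.6%). The touching L3MBTL1 window (chr20:43514001-43515000) had 64.2% over 2579 calls and 50.6% over 1807 calls, so here both windows differed in the same direction, by 15.5 and 13.6 percentage points. The next PLAGL1 window (chr6:144008001-144009000) was also higher after etoposide, with 51.1% over 4455 calls and 43.4% over 4419 calls. The start of the noncoding KCNQ1OT1 inside KCNQ1 (chr11:2700001-2701000) had 46.4% over 1828 calls and 31.3% over 1867 calls, but the window beside it (chr11:2699001-2700000) had 47.5% and 52.5%. At the other end of GNAS, 2 touching windows over GNAS-AS1 (chr20:58839001-58841000) had 54.5% and 61.8% after etoposide and 44.1% and 50.9% after propyl gallate. The window after the called one at NNAT (chr20:37521001-37522000) went the other way, with 34.7% and 38.3%. The lowest after etoposide were at the noncoding MEG3 (chr14:100827001-100828000, 65.5% and 88.0%) and at PPIEL (chr1:39559001-39560000, 48.3% and 70.1%). Of the 4 other MEG3 windows, the 3 before it were higher after etoposide by 6.47 to 10.4 percentage points and the 1 after it was lower (difference −12.7), so the locus held both directions.

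**Figure D4:**
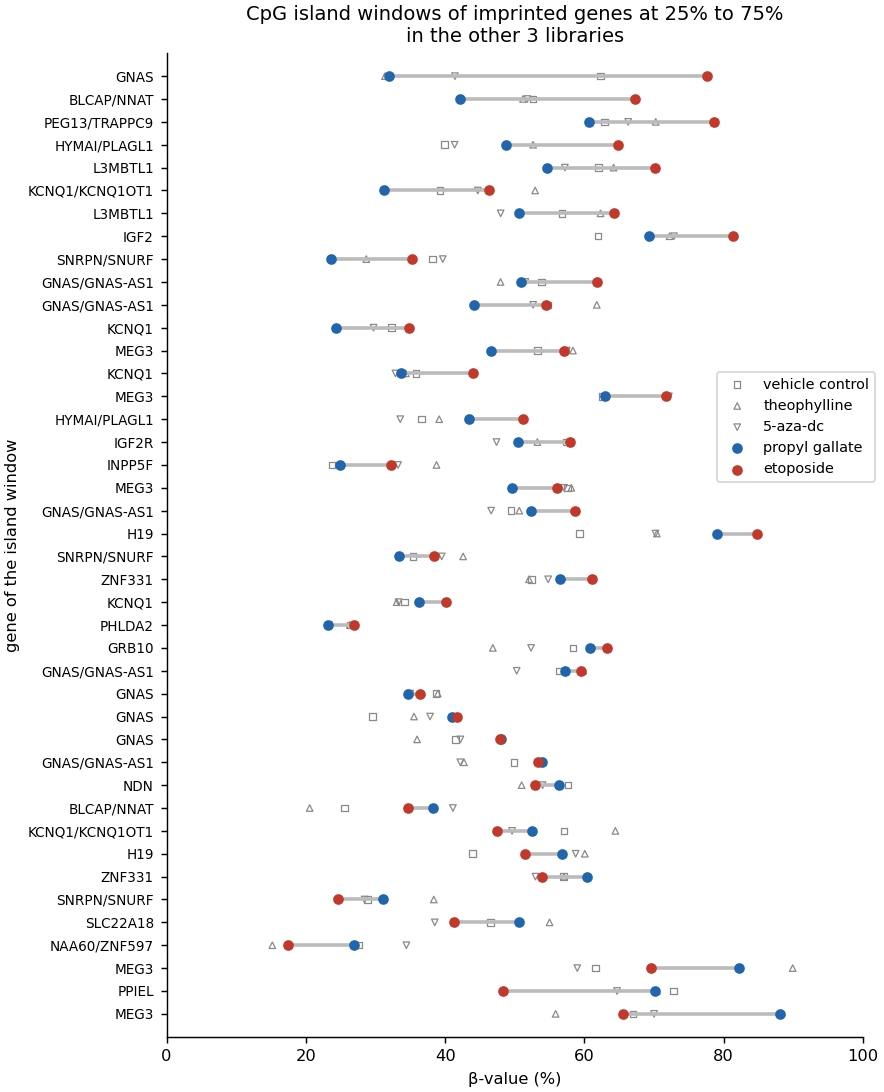
β-value (x axis, percent) of the 42 intermediate island windows of imprinted genes, 1 per line, named by gene and sorted by the difference. Red points are the etoposide library, blue the propyl gallate library and open symbols the other 3 libraries. Etoposide lies to the right of propyl gallate in 29 of the lines, by up to 45.7 percentage points at GNAS.

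In these 42 windows the etoposide library was the highest of all 5 in 18 and the lowest in 3, while propyl gallate was the highest in 4 and the lowest in 12. Theophylline was the highest in 14 and the lowest in 10, the vehicle control in 2 and 7, and 5-aza-dc in 4 and 10. The mean of the 42 windows was 48.1% for vehicle, 49.7% after theophylline and 47.9% after 5-aza-dc, so that the etoposide mean of 53.01% was the highest of the 5 libraries. Over all 3818 intermediate island windows the theophylline library was the highest in 28.7%, etoposide in 23.3% and propyl gallate in 21%. The vehicle control was the highest in 18.4% and 5-aza-dc in 8.59%. The lowest there was 5-aza-dc in 48.2%, etoposide in 14.1%, propyl gallate in 13.9%, the vehicle control in 13.2% and theophylline in 10.6%. With windows chosen by the mean of all 5 libraries, 41 imprinted windows remained, and the root mean square difference of this pair was 12.7 percentage points, against 7.16 to 12.5 in the 9 other pairs. The pairs share libraries, and with 1 library per condition no test of this pattern was possible.

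The labelled cell type was checked at promoters of its markers. Of 12 pluripotency markers 10 had a promoter window, and 6 were under 20% in both libraries, SOX2, LIN28A, DPPA4, SALL4, DNMT3B and UTF1. POU5F1 was at 89.4% and 90.8% and LIN28B at 89.4% and 90.4%, while ZFP42 had 31.9% and 25.9% and PRDM14 29.0% and 28.6%. NANOG and TDGF1 had no window. All 7 fibroblast markers measured were also under 20% in both libraries, so promoter levels in these windows do not tell the cell types apart. The libraries held 188844850 calls after etoposide (median window 413) and 205207822 calls after propyl gallate (median window 451).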

How the data were processed

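RRBS of 2 libraries was compared, 1 per condition. Per the labels and methods, the authors trimmed reads with Trim Galore 0.5.0, aligned them with Bismark 0.20.0 to hg38, summed CpG calls over 1000-base windows with methylKit 1.10.0, scaled coverage with normalizeCoverage, filtered it and kept windows shared by 5 libraries. The labels and the methods name different DNA extraction kits. The deposited counts of the vehicle control were unscaled. In the other libraries the authors had scaled the calls before they deposited them, by 1.18 for etoposide and 1.09 for propyl gallate with rounding, so these are treated as a score. The β-value is a fraction the authors computed and deposited, and is given here in percent.

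Calls before scaling were recovered from the whole numbers absent in each column, and returned 100% of the deposited values within rounding. Fisher's exact test, planned on deposited calls, used the recovered ones. Intervals were Newcombe's for a window and binomial for means. A gene's windows were those over its body and 1500 bases upstream. The windows named were the 10 largest differences each way among called windows with at least 100 calls in both libraries. The genes named had 2 or more called windows in the same direction, a called promoter island window, a called window as list members, or were the 5 largest means each way over at least 5 windows with at least 30 calls, and the 9 genes the study followed were given as a list. Members and lists were chosen with earlier results of these data known. The test was checked on simulated calls drawn independently, with changes set only in windows of intermediate level with at least 100 calls. Real calls are not independent, so this check gives no error rate for these data. Some called windows that this rule names are counted but not reported here. No per-sample column was unused (0). Columns of the authors' own comparisons were not used. Analyses used Python 3.11.15, numpy 2.4.6, pandas 2.3.3, scipy 1.17.1 and numba 0.67.0.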

Additional observations from a re-analysis of the deposited data

How the results depend on the processing

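No paired analysis was possible because each condition had 1 library. No replicate could be left out for the same reason. The called windows numbered 671 with calls as deposited, 780 at an adjusted p under 0.05, 443 with at least 30 calls, 407 after thinning to equal calls, 528 on autosomes and 617 by a chi-square test, all within 1.5 times of 564. They numbered 6526 at 10 percentage points, 2380 at 15, 119 at 40, 346 at an adjusted p under 0.001, 120 with at least 100 calls, and 138, 16 and 0 with calls divided by 2, 5 and 10. Those divisions stand for calls that are not independent. Of the 407 windows called after thinning to equal calls, 342 were among the 564, so the set changed more than its size. Added after seeing the data, windows with calls within 2-fold relative to library totals gave 367 and β-values before scaling gave 559.

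The mean difference was 0.108 percentage points with all calls pooled, the opposite sign, 0 as a median, −0.0351 with at least 30 calls, −0.0317 with at least 100, and −0.00117 as a mean log2 ratio (−0.00229 with a pseudocount of 1 percentage point). Genes at least 5 percentage points apart numbered 282 by the windows the table assigns, 1659 with calls pooled and 242 with every window, in place of 141. For the 19 genes given by their mean, 57 alternatives were run and 10 had the opposite sign, in 7 genes. In 3 of these 10 the interval of the reported value did not include 0, 2.45 for ENSG00000259519, 3.21 for LIFR and 1.02 for CREBBP, each with calls pooled. CCND2 also turned with at least 30 calls, to 0.660.

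At 10 percentage points the share called over all windows was 2.26%. The lists had 5 (DNA damage, 1.13%), 11 (antioxidant, 2.54%), 8 (DNA methylation, 2.32%), 4 (pluripotency, 1.91%) and 37 (imprinted, 5.24%) windows. The others had 3 (germline, 1.14%), 18 (variable after reprogramming, 2.32%), 2 (genes followed, 1.89%), 3 (HOX, 1.37%) and 5 (protocadherins, 3.91%). Under the main rule, by the windows the table assigns, the antioxidant list had 1. With at least 100 calls, etoposide stood apart in 28.3% of called windows, and the shares called were 0.109% (promoter islands), 0.0462% (other promoters), 0.115% (gene body islands), 0.0281% (other gene body), 0.102% (intergenic islands) and 0.0445% (other intergenic). The cause of these changes was not tested beyond the fewer windows each setting leaves. The median called window had 51 calls in the shallower library, which limits the precision of single windows.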
